A study of Mus musculus with 22 samples.

Results

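9 genes of T cells and of the lymphocytes that live within the gut lining were followed through 22 colon libraries: Cd3e, Cd3g, Cd2, Cd8a, Gzma, Gzmb, Itgae, Il7r and Ets1. They were taken by name, 9 of the 23997 genes in the deposited expression table. All libraries came from the colon of wild type BALB/c mice that were 5 weeks old when the drinking regimen began and drank for 3 weeks, so about 8 weeks old at the end, the age given in the series' design text. The CON group (n = 8) drank distilled water throughout and received no dextran sulfate sodium. In the other groups the water of the last week held 5% dextran sulfate sodium, which damages the colon lining and causes colitis: DSS (n = 5) in distilled water, HMLS (n = 4) in the deep sea water of that name and TM (n = 5) in a second deep sea water. The labels do not spell out HMLS or TM, name no sex, and do not say that each library is a separate mouse, so the p-values measure the spread between libraries, which may in part be technical. Because HMLS and TM were given only together with dextran sulfate sodium, these groups hold no measure of either water alone.

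A T cell recognises its target through a receptor whose signal is carried by the CD3 chains. Cd3e and Cd3g encode 2 of these chains. Cd2 encodes an adhesion receptor of T cells, in mice also of B cells, and Cd8a a chain of the co-receptor of killer T cells, which many intraepithelial lymphocytes carry as a pair of identical chains. Gzma and Gzmb encode granzymes, serine proteases stored in the granules of killer T cells and natural killer cells. Itgae encodes CD103, the integrin chain that pairs with the product of Itgb7 and holds lymphocytes at E-cadherin on epithelial cells, and it is also made by some dendritic cells. Il7r encodes the receptor chain for the survival cytokine IL-7, shared by naive and memory T cells and innate lymphoid cells. Ets1 encodes a transcription factor abundant in lymphocytes and also present in blood vessel cells. Apart from the CD3 chain genes, these genes are thus shared by several cell types, and in bulk tissue fewer cells of a type and less RNA per cell cannot be told apart.

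In GENCODE M21 on the mouse build GRCm38 all of them are protein-coding. Cd3e lies on chromosome 9 from 44998740 to 45009627 and Cd3g on the same chromosome from 44969572 to 44980431, both on the minus strand, and Ets1 is elsewhere on that chromosome, at 32636221 to 32757820 on the plus strand. Gzma (chromosome 13, 113093825 to 113100981) and Gzmb (chromosome 14, 56258838 to 56262260), both on the minus strand, are on different chromosomes. Cd2 is at 101275899 to 101287939 on chromosome 3 (minus strand), Cd8a at 71373427 to 71379173 on chromosome 6 (plus strand), Itgae at 73090583 to 73147446 on chromosome 11 (plus strand) and Il7r at 9505788 to 9530176 on chromosome 15 (minus strand).

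The upstream sequences of the CD3 chain genes and of the granzyme genes are shown because only Gzma was called in every colitis group against CON. Gzmb, like both CD3 genes, was called in none. With group means removed, the granzyme pair had the highest Pearson's r of all pairs (0.81). By Spearman's rho (0.615) it came after Cd2 with Il7r (0.625) and Cd3g with Ets1 (0.616). Each run is the 250 bases before the RefSeq transcript start (GRCm38.p6), 5' to 3' in the direction of transcription, from chr13:113100982-113101231 for Gzma, chr14:56262335-56262584 for Gzmb, chr9:45009612-45009861 for Cd3e and chr9:44980432-44980681 for Cd3g, all on the minus strand. The RefSeq start of Gzmb lies upstream of the GENCODE start of the gene, and that of Cd3e slightly downstream. Capitals mark matches on either strand to any of 6 short motifs named after the factor families that bind them: the ETS motif GGAAGT, the RUNX motif TGTGGT, the GATA motif AGATAA, the TCF/LEF motif CTTTGA, the E-box motif CAGGTG and a further E-box motif, CAGCTG.
Gzma: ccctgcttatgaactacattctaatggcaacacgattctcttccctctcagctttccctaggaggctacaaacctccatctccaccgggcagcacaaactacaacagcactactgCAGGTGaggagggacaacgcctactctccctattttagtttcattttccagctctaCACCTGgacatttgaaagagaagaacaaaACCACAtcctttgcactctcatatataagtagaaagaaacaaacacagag
Gzmb: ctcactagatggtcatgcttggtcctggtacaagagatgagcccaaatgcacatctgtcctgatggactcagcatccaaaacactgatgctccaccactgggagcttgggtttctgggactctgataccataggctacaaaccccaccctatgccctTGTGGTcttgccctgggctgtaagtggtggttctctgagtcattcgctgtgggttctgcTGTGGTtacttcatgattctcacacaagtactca
Cd3e: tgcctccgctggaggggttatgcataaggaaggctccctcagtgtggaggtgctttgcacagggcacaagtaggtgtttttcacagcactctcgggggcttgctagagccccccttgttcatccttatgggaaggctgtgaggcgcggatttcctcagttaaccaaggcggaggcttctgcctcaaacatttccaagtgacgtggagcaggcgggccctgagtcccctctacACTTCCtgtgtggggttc
Cd3g: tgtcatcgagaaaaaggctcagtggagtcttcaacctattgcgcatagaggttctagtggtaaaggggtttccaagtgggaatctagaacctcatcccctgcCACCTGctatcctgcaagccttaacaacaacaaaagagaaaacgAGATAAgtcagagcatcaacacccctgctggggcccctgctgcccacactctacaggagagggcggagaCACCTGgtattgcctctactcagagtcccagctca
Both granzyme runs held the RUNX motif, Gzma 1 time, at 50 to 45 bases before the start and on the reverse strand, and Gzmb 2 times, at 93 to 88 and at 34 to 29. It was found in 14% of 32851 RefSeq upstream runs of the same length. The CAGGTG E-box was matched 2 times in Gzma and 2 times in Cd3g (17.2% of all runs held it), AGATAA 1 time in Cd3g (9.99% of all runs) and GGAAGT 1 time in Cd3e, 18 to 13 bases before the start (19.7% of all runs). No match was shared by all 4, and CTTTGA (13.8% of all runs) and CAGCTG (13% of all runs) were in none of them. Of the other genes, Cd8a and Il7r also had an entry in the RefSeq table, and Cd2, Itgae and Ets1 had none. The run of Cd8a held no match to any of the 6 motifs. That of Il7r held only GGAAGT, 1 time, at 49 to 44 bases before the RefSeq start. The RefSeq start of Il7r lies downstream of its GENCODE start. Its whole run (chr15:9529877-9530126, minus strand) therefore lies within the GENCODE span of the gene, 9505788 to 9530176.

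The 22 libraries held 48089882 to 68733410 reads, of which 82.3% to 92.7% were mapped. All DSS libraries (82.3% to 88.9% mapped) lay below all CON libraries (89.9% to 91.9%), and HMLS (88.8% to 90.5%) and TM (89.5% to 92.7%) overlapped CON. The tissue label was borne out by its markers: the epithelial genes Epcam, Vil1, Cdx2, Krt8, Krt20, Car1, Slc26a3 and Muc2 summed to between 9089.9 and 16133 FPKM in every library. The table names no unit. From the tools in the submitters' processing notes its values were taken as FPKM, fragments scaled to transcript length and to the mapped total of the library, on which levels of different genes can be set side by side. The 9 genes were low on this scale. In CON the mean was 9.54 FPKM for Ets1 and between 0.664 and 2.16 FPKM for the other 8.

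**Figure D1:**
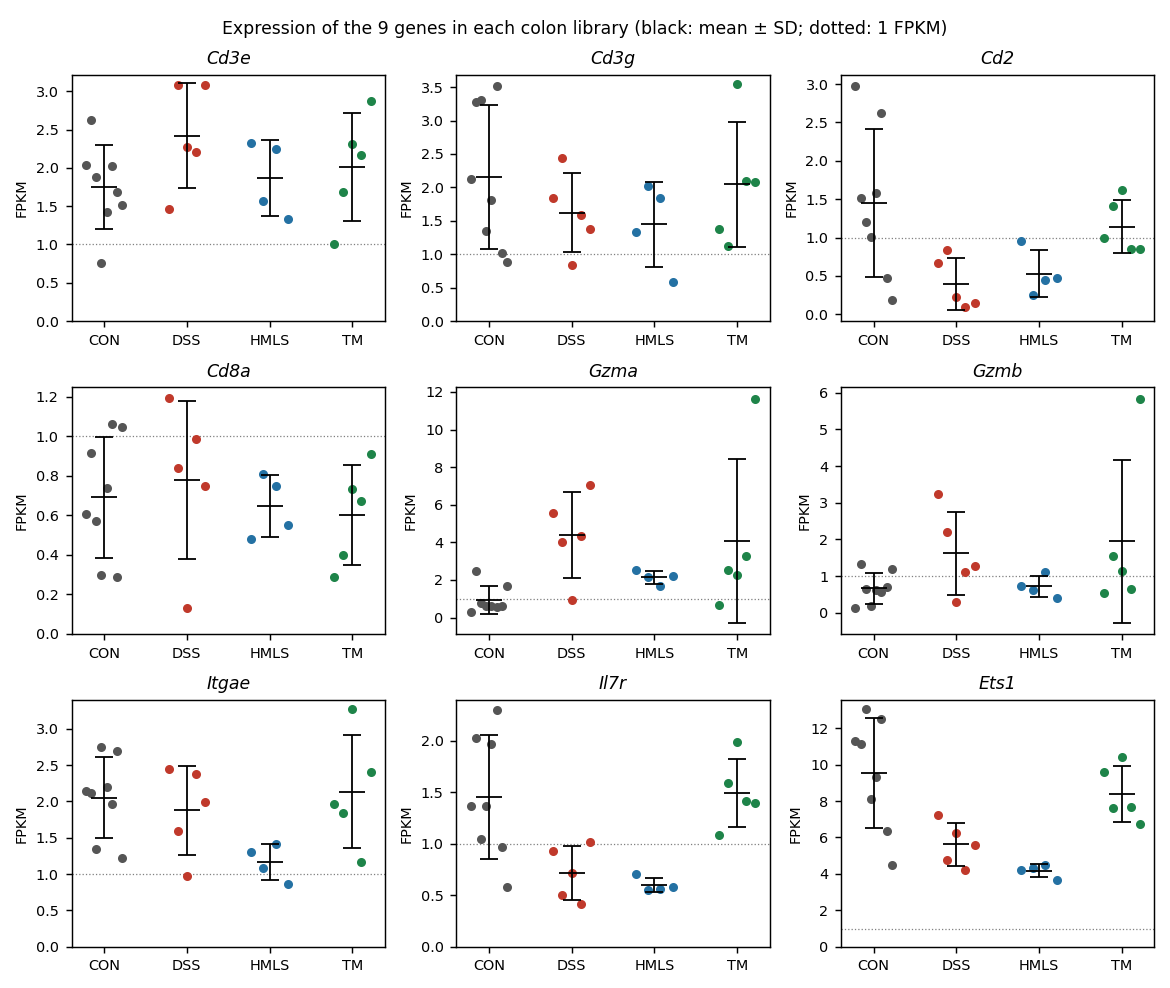
FPKM of each of the 9 genes (y axis, 1 panel per gene) in every library of CON, DSS, HMLS and TM (x axis); points are libraries, black bars are the mean ± SD and the dotted line is 1 FPKM. Gzma is higher in most colitis libraries than in CON, Ets1 and Il7r are low in DSS and HMLS but not in TM, and Cd3e and Cd8a overlap in all 4 groups.

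DSS was set against CON to compare these genes with and without colitis in mice that drank distilled water. Gzma rose and Ets1 and Cd2 fell, while the CD3 chain genes were not called. Differences are given as differences in mean log2(FPKM + 1), which understate changes near 1 FPKM, and a gene was called at an adjusted p under 0.05 (limma, Benjamini-Hochberg over all genes tested). Genes entered a test if 4 or more libraries of the fit reached 1 FPKM. In this comparison 8 of the 9 genes did, all but Cd8a, and 3 of the 8 were called, 1 higher and 2 lower. Cd2, 1 of the 2 lower, met this filter through CON alone, with 6 CON and 0 DSS libraries at 1 FPKM or more. Of all 13483 genes tested 27.1% were called (14% higher, 13.1% lower; 1889 and 1766 genes, and 1243 and 2570 with upper-quartile scaling), so 3 of 8 was read against that background. Their median difference was -0.16, against -0.01 over all genes tested.

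Gzma was at 5.58, 4.001, 0.960, 4.33 and 7.07 FPKM in DSS replicates 1, 2, 5, 6 and 7, against a lowest value of 0.320, a median of 0.618 and a highest value of 2.50 FPKM in CON. The groups overlapped, with 4 DSS libraries above every CON library and replicate 5 within the CON range. Gzma rose by 1.39 ± 0.303 (SE) on the log2 scale (limma, adjusted p = 0.00521), and the call held without each library in turn. That is 2.63-fold in FPKM + 1, not in FPKM, where the means were 4.39 in DSS and 0.955 in CON. Gzmb was at 3.23, 2.19, 0.290, 1.12 and 1.26 FPKM in the same libraries and at 0.130 to 1.32 FPKM in CON (median 0.624). Its difference of 0.58 ± 0.251 was not called (adjusted p = 0.0937), and without DSS replicate 5, the lowest library for both granzymes, it was 0.81 (adjusted p = 0.0202).

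Ets1 was at 7.22, 4.79, 6.27, 4.22 and 5.59 FPKM in DSS and between 4.49 and 13.1 FPKM in CON (median 10.2). The groups overlapped at CON replicates 7 and 8, at 6.33 and 4.49 FPKM. Ets1 fell by 0.63 on the log2 scale (SE 0.209, adjusted p = 0.0379). Cd2 was at 0.671, 0.838, 0.221, 0.0919 and 0.152 FPKM in DSS and between 0.185 and 2.98 FPKM in CON (median 1.36), where replicates 7 and 8 were again the lowest. Cd2 fell by 0.74 (SE 0.264, adjusted p = 0.0488). Il7r was at 0.932, 0.507, 0.714, 0.413 and 1.02 FPKM in DSS and between 0.577 and 2.30 in CON (median 1.37). Its difference of -0.49 ± 0.176 lay just outside the threshold (adjusted p = 0.0505), and it was called without CON replicate 7 (adjusted p = 0.0464), CON replicate 8 (0.0163) or DSS replicate 1 (0.0473), with upper-quartile scaling (0.0406) and with all 4 groups in 1 fit (0.0223).

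The calls of Ets1 and Cd2 did not hold without every library. That of Ets1 ended without any one of CON replicates 1, 2, 3, 5 and 6 or DSS replicates 2, 6 and 7 (adjusted p 0.0584 to 0.0843), and that of Cd2 without any one of CON replicates 1 to 6 or DSS replicates 5, 6 and 7 (0.061 to 0.109), and both ended without the filter (0.0588 for Ets1 and 0.0706 for Cd2). With the percent of mapped reads as a covariate no member was called (Gzma 0.95, adjusted p = 0.351; Ets1 -0.50, 0.493; Cd2 -0.41, 0.651). Since the mapped percent of DSS and of CON did not overlap, it and the colitis cannot be told apart here.

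Cd3e was at 1.46, 3.08, 2.28, 2.204 and 3.09 FPKM in DSS and at 0.763 to 2.63 FPKM in CON (median 1.79). The groups overlapped, and the difference of 0.32 ± 0.169 was not called (limma, adjusted p = 0.169, 95% interval -0.04 to 0.68). In this fit a fall of Cd3e larger than 0.04 lay outside the interval. Over the 19 alternatives the adjusted p of Cd3e ran from 0.0651 to 0.875. No interval was computed with upper-quartile scaling or with the mapped percent as a covariate. Cd3g was at 0.833 to 2.44 FPKM in DSS and 0.882 to 3.52 in CON, with a difference of -0.23 ± 0.234 (adjusted p = 0.490). Itgae was at 0.976 to 2.45 FPKM in DSS and 1.21 to 2.75 in CON (-0.09 ± 0.165, adjusted p = 0.706). Cd8a was at 0.132 to 1.20 FPKM in DSS and 0.288 to 1.06 in CON. In the fit without a filter, where 14.8% of 21437 genes were called (7.59% higher, 7.21% lower), its difference was 0.06 (limma, adjusted p = 0.828).

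Of 15 further T cell receptor and co-receptor genes 10 were listed in the table, the antigen receptor constant genes not being among them, and 4 passed the filter. Of these only Cd27, a co-stimulatory receptor, was called, with a fall of 0.45 on the log2 scale (SE 0.159, adjusted p = 0.046), and Cd4, the co-receptor of helper T cells, averaged 0.935 ± 0.413 FPKM (SD) over the DSS libraries and 2.05 ± 0.968 FPKM over the CON libraries, and the log2 difference of -0.62 was not called (adjusted p = 0.0526). The others of the 4, Cd7 (0.34, adjusted p = 0.102) and Thy1 (0.19, 0.515), were higher in DSS by mean and not called. With upper-quartile scaling 3 genes of the list fell: Cd27, Cd4 (-0.69, adjusted p = 0.0397) and the co-stimulatory receptor gene Cd28 (-0.49, 0.0232). Cd28 was not among the 4 and passed the filter only with that scaling. None of 7 tested genes of T cell receptor signalling and none of 8 tested T cell transcription factors was called by limma, while with upper-quartile scaling 2 of the 8 fell, Ikzf3 (-0.70, adjusted p = 0.0459) and Tcf7 (-0.45, 0.0469). Without that scaling, 0 signalling genes and 3 transcription factors had an unadjusted p under 0.05, against 41% of all genes tested. The 3 went both ways: Ikzf3 (-0.63) and Tcf7 (-0.37) were lower and Zbtb7b (0.37) was higher. The medians of the lists were -0.20 for the signalling genes and -0.12 for the transcription factors. Of 7 other intraepithelial lymphocyte genes tested 3 fell and none rose: Hopx by 0.59, the CD103 partner Itgb7 by 0.73 and the chemokine Xcl1 by 0.69 (adjusted p = 0.00686, 0.0174 and 0.0256). Hopx is also expressed by epithelial cells.

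Genes shared by all white blood cells fell as well, with a list median of -1.03. Of 6 pan-leukocyte genes 5 fell, among them Ptprc, which encodes CD45, whose mean was 4.01 ± 0.543 FPKM (SD) in the DSS libraries and 10.1 ± 4.40 FPKM in the CON libraries (log2 difference -1.04 ± 0.26, adjusted p = 0.0104), Cd52 (-1.25) and Coro1a (-1.05). The summed level of the 6 genes was 26.6 to 40.5 FPKM in DSS and 33.1 to 116.6 in CON. Of 8 B cell genes 3 fell (Cd79b, Cr2 and Ms4a1), and their sum was 2.64 to 14.8 FPKM in DSS and 4.12 to 56.9 in CON. Of 7 endothelial genes 3 fell (Tek, Kdr and Emcn; sum 10.2 to 23.9 against 16.3 to 36.5 FPKM). These 2 lists mark other cell types that also make Ets1 or, for B cells, Cd2; their part in the falls of Ets1 and Cd2 was not tested.

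The list of partners and ligands moved in both directions, 6 of 15 tested higher and 3 lower, against 14% and 13.1% of all genes tested. It also holds genes, such as the butyrophilin-like genes and Il15, that were not counted as binding or signalling through 1 of the 9. Cdh1, which encodes E-cadherin, the epithelial ligand of CD103, rose by 0.74 ± 0.151 (adjusted p = 0.00379), from 134 ± 27.0 to 224 ± 43.9 FPKM. The butyrophilin-like genes Btnl4, Btnl2 and Btnl6 of the epithelium rose by 0.93, 0.94 and 0.52, and the IL-7 gene Il7 by 0.47 (adjusted p = 0.0458). The other partners of Il7r moved apart: the common cytokine chain Il2rg fell by 0.95 (adjusted p = 0.00796) and Crlf2, which joins Il7r in the receptor for the cytokine TSLP, rose by 0.75 (adjusted p = 0.0264). Cd48, the mouse ligand of CD2, fell by 0.86 (adjusted p = 0.00633), and so did Il15, a cytokine of intraepithelial lymphocytes, by 0.60 (adjusted p = 0.0356). H2-T3, which encodes a ligand of paired CD8 alpha chains, was not called (0.34, adjusted p = 0.300), and Tslp was below the filter, at 0.0647 ± 0.0919 FPKM in DSS. Of the partners of the granzymes, Ctsc, the protease that activates them, rose by 0.37 (adjusted p = 0.0317), while the granule proteoglycan gene Srgn (-0.34) and the granzyme B inhibitor gene Serpinb9 (-0.14) were not called. With upper-quartile scaling (median of all genes -0.11) the rises of Il7 (0.38, adjusted p = 0.116), Btnl6 (0.44, 0.0557) and Ctsc (0.26, 0.183) were not called. Prf1, which encodes the pore-forming perforin, stayed below the filter at 0.111 ± 0.106 FPKM in CON and 0.0509 ± 0.0787 in DSS.

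**Figure D2:**
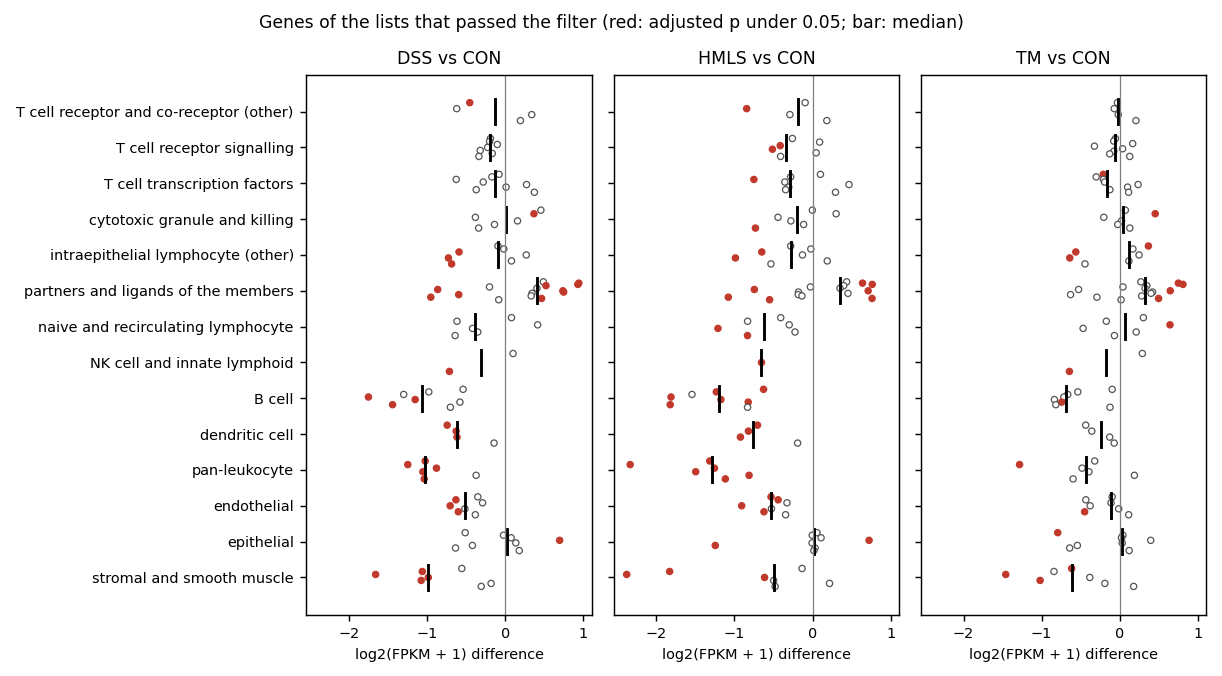
Difference in mean log2(FPKM + 1) from CON (x axis) of the genes of each list that passed the filter (y axis, 1 row per list), for DSS, HMLS and TM; each point is a gene, red points were called and black bars are medians. The pan-leukocyte and B cell genes lie left of 0 in DSS and HMLS, the medians of the 3 T cell lists and of the intraepithelial list lie nearer to 0, and in TM the pan-leukocyte median is -0.44.

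The comparison of HMLS with CON gave colitis in mice that drank this deep sea water. Ets1, Il7r and Itgae fell and Gzma rose. The filter was passed by 7 of the 9 genes, all but Cd8a and Gzmb, and 4 were called, 1 higher and 3 lower, against 34.1% of all 13400 genes tested (17.5% higher, 16.6% lower; 2339 and 2226 genes, and 1259 and 3579 with upper-quartile scaling). Il7r, called lower, and Cd2, not called, met the filter through CON alone, each with 6 CON and 0 HMLS libraries at 1 FPKM or more. The median of the 7 was -0.48, against 0.00 over all genes tested.

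Ets1 was at 4.22, 4.31, 4.51 and 3.65 FPKM in HMLS replicates 3, 6, 7 and 8. Only CON replicate 8, at 4.49 FPKM, lay within that range, and the other 7 CON libraries lay above it. Ets1 fell by 0.97 (SE 0.214, adjusted p = 0.00399), and the call held without each library in turn. Il7r was at 0.707, 0.547, 0.562 and 0.584 FPKM, a narrow range that again held only CON replicate 8, and fell by 0.58 (SE 0.18, adjusted p = 0.0222). Itgae was at 1.30, 1.09, 1.41 and 0.858 FPKM, against 1.21 to 2.75 in CON (median 2.13), and fell by 0.48 (SE 0.155, adjusted p = 0.0263). The calls of Il7r and Itgae ended without HMLS replicate 8 (adjusted p = 0.0559 and 0.0911), and that of Itgae also without HMLS replicate 6 (0.0563). With the mapped percent as a covariate Il7r (-0.45, adjusted p = 0.171) and Itgae (-0.56, 0.0593) were no longer called.

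Gzma was at 2.53, 2.18, 1.66 and 2.198 FPKM in HMLS, and all 4 libraries were above 7 of the 8 CON libraries. CON replicate 2, at 2.50 FPKM, lay within the HMLS range. Gzma rose by 0.75 ± 0.221, 1.68-fold in FPKM + 1 (limma, adjusted p = 0.0175), with means of 2.14 FPKM in HMLS and 0.955 FPKM in CON. The call ended when all 4 groups shared 1 fit (adjusted p = 0.150). Gzmb was at 0.410 to 1.10 FPKM, within the CON range, with a difference of 0.07 in the fit without a filter (adjusted p = 0.811, where 20.7% of 21145 genes were called, 10.4% higher and 10.3% lower). Cd3e (1.33 to 2.32 FPKM, difference 0.07), Cd3g (0.590 to 2.03 FPKM, -0.34) and Cd2 (0.245 to 0.956 FPKM, -0.59) were not called (adjusted p = 0.768, 0.328 and 0.108), and without CON replicate 8 that of Cd2 was called (-0.73, adjusted p = 0.0273). Cd8a was at 0.481 to 0.810 FPKM, a difference of -0.02 without a filter (adjusted p = 0.928).

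The counts of the lists around these genes stand against the 16.6% of all genes that were called lower and 17.5% called higher. Of 6 T cell receptor signalling genes tested 2 fell, the kinase Lck by 0.41 and the adaptor Lcp2 by 0.51 (adjusted p = 0.0491 and 0.0253), and 1 of 4 receptor and co-receptor genes, Cd4, fell by 0.84 (adjusted p = 0.0152). Among the genes of naive and recirculating lymphocytes Ltb, which encodes lymphotoxin beta, fell by 1.21 (adjusted p = 0.00741). All 6 pan-leukocyte genes fell, with a summed level of 19.1 to 27.6 FPKM against 33.1 to 116.6 in CON, and 6 of 8 B cell genes (sum 0.648 to 6.10 against 4.12 to 56.9 FPKM) and 4 of 7 endothelial genes fell (10.9 to 24.1 against 16.3 to 36.5 FPKM). Their part in the falls of Ets1 and Il7r was not tested. Of 15 tested genes of the list of partners and ligands 4 rose and 3 fell, with a median of 0.35. Btnl4 rose by 0.76 (adjusted p = 0.00365) and Btnl2 by 0.64 (0.0246; 0.52 and 0.0589 with upper-quartile scaling). Itgb7 fell by 0.99 (adjusted p = 0.00544) and its ligand gene Cdh1 rose by 0.71 (adjusted p = 0.00214). Il7 rose by 0.76 (adjusted p = 0.00643), and Il2rg fell by 1.08 (adjusted p = 0.00473), while Crlf2 was not called (-0.18, adjusted p = 0.412). Srgn fell by 0.73 (adjusted p = 0.0492), Cd48 by 0.74 (adjusted p = 0.011), and Ctsc (0.30) was not called.

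In TM against CON, the same comparison for the other deep sea water, only Gzma was called. The filter was passed by 8 of the 9 genes, and 1 was called, higher, against 26% of all 13485 genes tested (14.3% higher, 11.8% lower; 1924 and 1586 genes, and 1171 and 2602 with upper-quartile scaling). The median of the 8 was 0.04, against 0.01 over all genes tested.

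Gzma was at 0.649, 2.54, 2.24, 3.28 and 11.6 FPKM in TM replicates 3, 5, 6, 7 and 8, so that replicate 3 lay at the CON median and replicate 8 was the highest of all 22 libraries. It rose by 1.11 ± 0.379, 2.15-fold in FPKM + 1 (limma, adjusted p = 0.0447), with means of 4.07 FPKM in TM and 0.955 FPKM in CON. Without TM replicate 8 the difference was 0.69 (adjusted p = 0.0893), and the call also ended without TM replicate 5, 6 or 7 or any one of CON replicates 1 and 3 to 7 (0.056 to 0.0884), and with upper-quartile scaling (1.04, 0.0518), without the filter (0.0579) or with the mapped percent as a covariate (1.15, 0.0519). Gzmb was at 0.533, 1.55, 1.14, 0.655 and 5.84 FPKM in the same libraries, with replicate 3 again lowest and replicate 8 highest, and its difference of 0.62 ± 0.304 was not called (adjusted p = 0.145).

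The genes that fell in HMLS lay near CON in TM. Ets1 was at 9.58, 7.59, 10.4, 7.65 and 6.76 FPKM, within the CON range (-0.12 ± 0.204, adjusted p = 0.698, 95% interval -0.55 to 0.32). Il7r was at 1.09, 1.59, 1.99, 1.41 and 1.39 FPKM, also within it (0.05 ± 0.168, adjusted p = 0.839, 95% interval -0.31 to 0.41; -0.02 with upper-quartile scaling). Cd2 was at 0.852 to 1.62 FPKM (-0.10, adjusted p = 0.790), Cd3e at 1.01 to 2.88 (0.12, 0.627), Cd3g at 1.13 to 3.54 (-0.03, 0.942), Itgae at 1.17 to 3.27 (0.02, 0.933; -0.06 with upper-quartile scaling) and Cd8a at 0.289 to 0.910 (-0.07 and 0.761 in the fit without a filter, where 15.3% of 21218 genes were called, 8.35% higher and 7% lower). Of 8 tested T cell receptor signalling genes and 4 receptor and co-receptor genes limma called none (0 and 0 at an unadjusted p under 0.05), 1 of 6 pan-leukocyte genes fell (Cd52, -1.28, adjusted p = 0.0246), and 1 of 8 B cell genes. From the list of partners and ligands Cdh1 (0.65, limma, adjusted p = 0.00276), Il7 (0.50, 0.046), Btnl2 (0.75, 0.0146) and Btnl4 (0.81, 0.000703) rose in this group too. The rise of Il7 was not called with upper-quartile scaling (0.41, 0.103). Itgb7 fell by 0.64 (adjusted p = 0.031). The 3 comparisons share the CON libraries, so rises or falls found in more than 1 of them are not independent.

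The remaining lists hold cells that share single genes with the 9. Of 4 dendritic cell genes tested, cells that can make Itgae, 3 fell in DSS and 3 in HMLS (Ccr2, Clec9a and Itgax in each), and limma called 0 in TM (2 at an unadjusted p under 0.05). The summed level of all 7 genes of that list, those below the filter included, was 2.82 to 11.2 FPKM in CON, 2.28 to 5.99 in DSS, 2.76 to 4.10 in HMLS and 4.16 to 8.12 in TM, and the part of these cells in the fall of Itgae in HMLS was not tested. Of the genes of natural killer and innate lymphoid cells, which share Il7r and the granzymes, 2, 1 and 2 passed the filter in DSS, HMLS and TM, and only Kit, which other cells of the gut wall also make, fell in each. Among the T cell transcription factors Ikzf3 fell in HMLS (-0.75) and Ahr in TM (-0.21), 1 of 8 each. The granule list held 1 rise of 6 in DSS and in TM (Ctsc, in neither with upper-quartile scaling; in TM 0.34, adjusted p = 0.0926) and 1 fall of 6 in HMLS (Srgn). Of the intraepithelial list Hopx and Itgb7 fell and Amica1 rose in TM, the last not with upper-quartile scaling (0.28, adjusted p = 0.142), and Hopx and Itgb7 fell in HMLS. No mast cell gene passed the filter, and their sum was at most 1.56 FPKM in any library. Of 8 epithelial genes Krt20 rose in DSS and HMLS, Muc2 fell in HMLS and Car1 fell in TM, and of 7 stromal and smooth muscle genes 4, 3 and 3 fell.

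**Figure D3:**
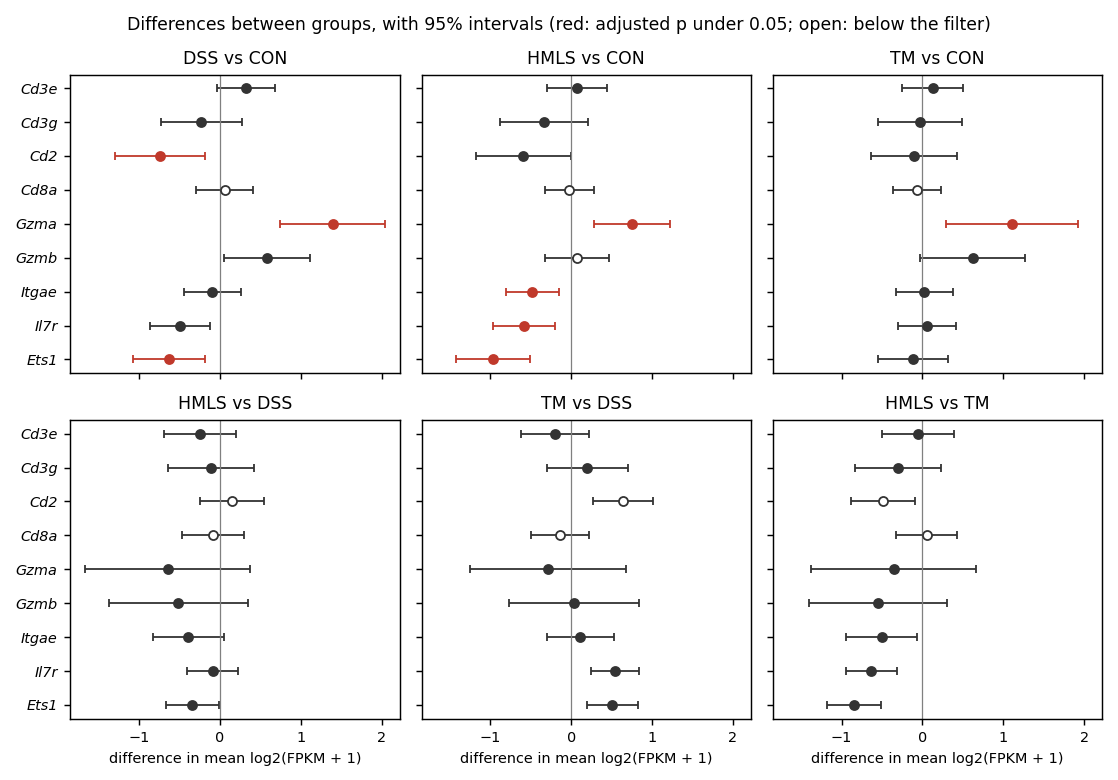
Difference in mean log2(FPKM + 1) (x axis) of each gene (y axis) for the 6 comparisons of groups, with 95% intervals from the limma fit; red points were called and open points come from the fit without a filter. Gzma lies right of 0 in the 3 comparisons with CON, and the intervals of Ets1 and Il7r lie right of 0 in TM vs DSS and left of 0 in HMLS vs TM, where no gene was called.

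The colitis groups were compared with each other to ask whether either water changed these genes in colitis. The differences that stood out were those of TM, where the mean levels of Il7r, Ets1 and Cd2 were higher than in the other colitis groups, but none passed the threshold. In TM against DSS the share of genes called was 0% of 13341 (limma, adjusted p under 0.05), and 367 genes, 2.75%, had an unadjusted p under 0.05, among them 2 of the 7 members tested. Il7r had a difference of 0.54 ± 0.14 (unadjusted p = 0.00155, 95% interval 0.24 to 0.84), and all 5 TM libraries (1.09 to 1.99 FPKM) lay above all 5 DSS libraries (0.413 to 1.02 FPKM). Ets1 had a difference of 0.51 ± 0.146 (unadjusted p = 0.00332, 95% interval 0.20 to 0.82), and its groups overlapped at the edge (6.76 to 10.4 against 4.22 to 7.22 FPKM). The adjusted p was 1 for both. Cd2, below the filter in this fit, was at 0.852 to 1.62 FPKM in TM and 0.0919 to 0.838 in DSS, again without overlap. Of the 9 genes, these 2, Il7r and Cd2, had groups without overlap. The share of all genes without overlap was not computed for any comparison. Lack of overlap is therefore given only as a description of the values, here and in HMLS against TM. Most leukocyte genes stood higher beside them. Of 6 pan-leukocyte genes 4 had an unadjusted p under 0.05 (limma): Arhgdib (0.70), Coro1a (0.66), Laptm5 (0.56) and Ptprc (0.44). In the same list Cd53 was at 0.40 and Cd52 at -0.04 (limma, unadjusted p = 0.0991 and 0.903). Of 5 B cell genes tested 2 had an unadjusted p under 0.05, Cd79b (1.03) and Pax5 (0.58). None of these genes was called. The pan-leukocyte sum was 34.4 to 83.7 FPKM in TM (median 42.8) and 26.6 to 40.5 in DSS (median 35.1). That of all 8 B cell genes was 6.07 to 30.2 FPKM in TM (median 9.85) and 2.64 to 14.8 in DSS (median 6.04). Their part in the differences of Il7r, Ets1 and Cd2 was not tested.

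In HMLS against TM the share called was likewise 0% of 13341 genes, and 1260 genes, 9.44%, had an unadjusted p under 0.05, among them 3 of the 7 members tested. Ets1 was lower in all 4 HMLS libraries (3.65 to 4.51 FPKM) than in all 5 TM libraries, with a difference of -0.85 ± 0.155 (unadjusted p = 6.54e-05, adjusted p = 0.278). Il7r was also without overlap (0.547 to 0.707 against 1.09 to 1.99 FPKM), with a difference of -0.63 ± 0.149 (unadjusted p = 0.000714, adjusted p = 0.341). For Itgae the difference was -0.50 ± 0.206 (unadjusted p = 0.0275, adjusted p = 0.490). Summed levels of the pan-leukocyte genes were 19.1 to 27.6 FPKM in HMLS and 34.4 to 83.7 in TM, and those of the B cell genes 0.648 to 6.10 and 6.07 to 30.2 FPKM, so both lists were lower beside Ets1 and Il7r, and their part in these differences was not tested.

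In HMLS against DSS the share called was 0% of 13341 genes as well, with 740 genes, 5.55%, at an unadjusted p under 0.05 and 1 of 7 members, Ets1 (-0.34 ± 0.155, unadjusted p = 0.0449, adjusted p = 0.849). Gzma was at 1.66 to 2.53 FPKM in HMLS and 0.960 to 7.07 in DSS, a difference of -0.64 ± 0.477 (adjusted p = 0.856, 95% interval -1.66 to 0.38). The intervals of Cd3e were -0.69 to 0.20 in HMLS against DSS, -0.61 to 0.22 in TM against DSS and -0.50 to 0.39 in HMLS against TM, and those of Gzma in the last 2 were -1.25 to 0.67 and -1.38 to 0.66. By mean level the order was DSS, TM, HMLS, CON for Gzma (4.39 ± 2.27, 4.07 ± 4.34, 2.14 ± 0.362 and 0.955 ± 0.738 FPKM) and CON, TM, DSS, HMLS for Ets1 (9.54 ± 3.04, 8.40 ± 1.53, 5.62 ± 1.18 and 4.17 ± 0.367 FPKM; all SD). Without TM replicate 8 the TM mean of Gzma was 2.18 ± 1.11 FPKM, close to that of HMLS, and the log2 difference of HMLS from TM was 0.059 in place of -0.36. Neighbours in these orders were not called different, except Gzma in HMLS against CON.

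Whether a gene moved by another amount than the T cell receptor gene Cd3e was asked by subtracting log2(Cd3e FPKM + 1) in each library, for 6 genes in 6 comparisons. None of the 36 differences passed (two-sided exact permutation test, smallest adjusted p = 0.0699), and 11 had an unadjusted p under 0.05. Relative to Cd3e, Gzma was higher by 1.07 in DSS than in CON (exact p = 0.0124), by 0.68 in HMLS (0.0263) and by 0.98 in TM (0.00777). Ets1 relative to Cd3e was lower by a log2 difference of -0.95 in DSS (exact p = 0.00699) and -1.04 in HMLS (0.00202), where all 4 HMLS libraries lay below all 8 CON libraries. Il7r relative to Cd3e differed from CON by -0.81 in DSS (0.00777) and -0.65 in HMLS (0.0141), and TM differed from DSS by 0.74 (0.0238). Without DSS replicate 1 or DSS replicate 5, 3 and 2 of the 36 passed.

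Within groups the 9 genes did not vary as 1 block. After group means were removed, Pearson's r of log2(FPKM + 1) over the 22 libraries ranged from -0.29 to 0.81 over the 36 pairs, with a median of 0.24, and 10 pairs were above 0.5. One set of high values joined Gzma and Gzmb (0.81, Spearman's rho 0.61) and Cd8a (0.66 with Gzma, 0.64 with Gzmb). Another joined Ets1, Cd2 and Il7r (0.72 for Cd2 and Ets1, 0.66 for Il7r and Ets1, 0.65 for Cd2 and Il7r) and Cd3g (0.64 with Ets1, 0.55 with Cd2). Between the granzymes and Ets1, Cd2 and Il7r the values ran from -0.29 (Gzma and Ets1) to 0.08 (Gzma and Il7r), while Cd3g and Cd8a, 1 from each set, correlated at 0.54. Cd3e and Cd3g correlated at 0.51, and Itgae at no more than 0.33 with any member. These are descriptions with no test, and the points share library composition and depth.

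**Figure D4:**
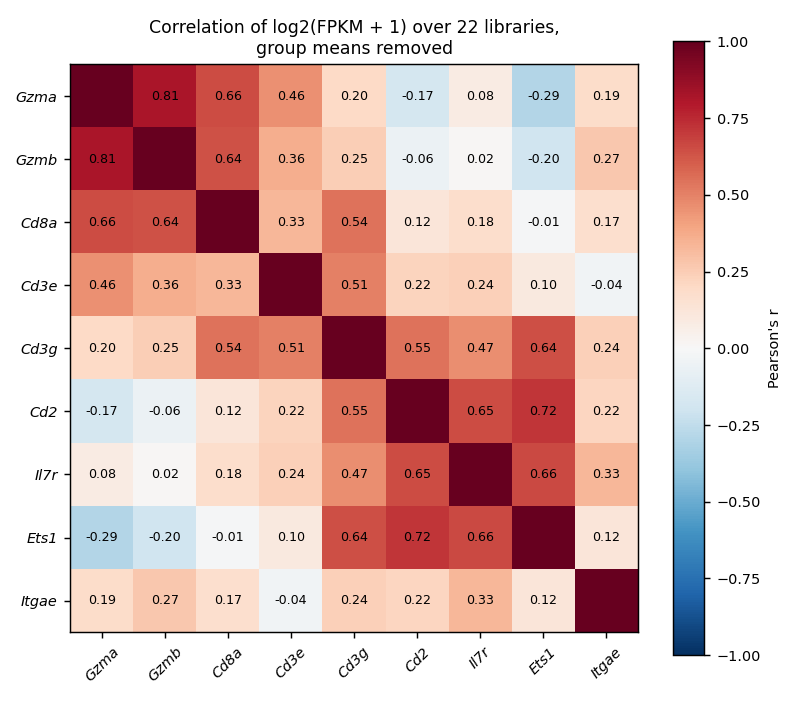
Pearson's r of log2(FPKM + 1) between each pair of the 9 genes (both axes) over 22 libraries after the group means were removed; colour runs from -1 (blue) to 1 (red). The granzymes and Cd8a form 1 red corner, and Cd3g, Cd2, Il7r and Ets1 another.

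The gene most like Cd3e outside the 9 was Ccl5, a chemokine of killer T cells, with Pearson's r of 0.82 and Spearman's rho of 0.81 over the 22 libraries with group means removed, the highest of 13787 genes. It was 0.79 without CON replicate 4 and TM replicate 3, the libraries farthest from the median, and stayed among the first 5 when any 1 group was left out. Mean Ccl5 levels were 2.35 ± 0.652 FPKM for CON, 3.78 ± 1.78 for DSS, 2.39 ± 0.883 for HMLS and 3.03 ± 2.18 for TM (SD), and like Cd3e it was called in none of the comparisons. The next were BC025920 (0.74), Map10 (0.72), Zfp551 (0.71) and Cyp2d22 (0.68; 0.43 without the same 2 libraries), none of which stayed among the first 5 whichever group was left out. Of the members, Cd3g ranked 163 and Gzma 328 by this measure, and Itgae (-0.04) ranked 7822.

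**Figure D5:**
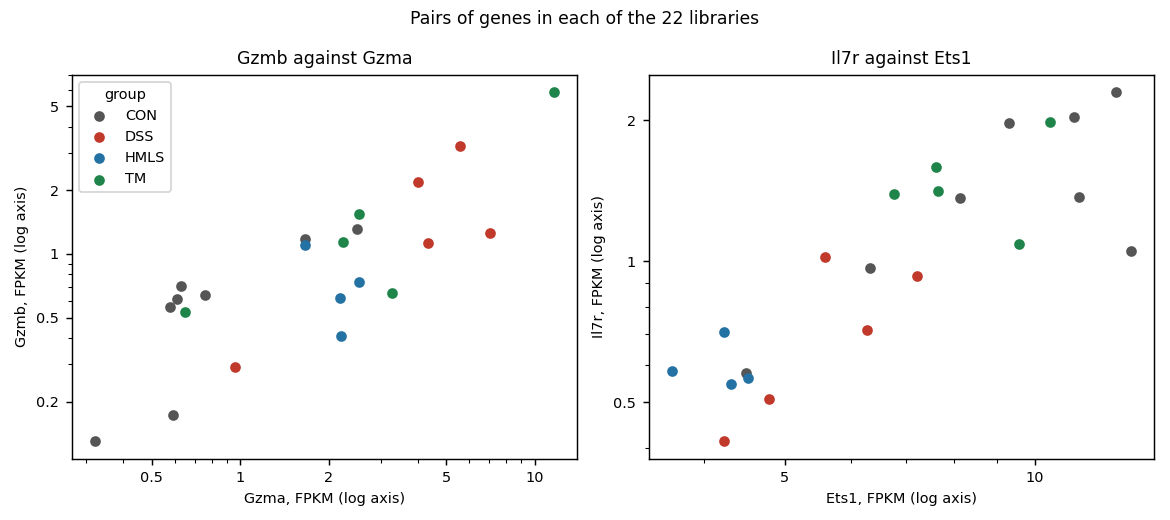
FPKM of Gzmb against Gzma (left) and of Il7r against Ets1 (right) in each of the 22 libraries, on log axes and coloured by group. TM replicate 8 lies at the upper right for the granzymes, and all HMLS libraries lie at the lower left for Il7r and Ets1, below every TM library, together with CON replicate 8 and some DSS libraries.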

How the data were processed

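Mouse colon RNA was made into 22 TruSeq Stranded Total RNA libraries, per the labels' protocols. The submitters' processing notes name bcl2fastq 2.20, Bowtie, TopHat2 2.0.13 and Cufflinks 2.2.0; settings and annotation are not given in the sources used here. The authors deposited 1 expression table without a stated unit, taken as FPKM, and, per library, a count of reads, a count of those mapped and the percent mapped. Whole reads could not be recovered from the FPKM, so reads per gene are unknown and no count test was run.

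Differences were computed with limma 3.58.1 (R 4.3.3) on log2(FPKM + 1), with an intensity trend and robust variance, on genes that reached 1 FPKM in 4 or more of the libraries fitted. Each group was fitted with CON alone, and the 3 colitis groups together. P-values were adjusted by Benjamini-Hochberg over all genes tested, and a gene was called at an adjusted p under 0.05. The fit was tested on simulated data. Differences to Cd3e used a two-sided exact permutation test. The 9 genes and the 15 lists were chosen with earlier results of these data known. Of 142 list genes 137 matched a row of the table, Jaml as Amica1 and Cd244a as Cd244; 5 antigen receptor constant-region genes were not analysed here. The result of 1 further list gene is not reported here.

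All 9 genes were described in every comparison. Of each list, up to 3 genes with the smallest p in DSS against CON were named, and each partner that binds or signals through 1 of the 9. Other list genes named beside a count were chosen after their values were seen. Genes most like Cd3e were the 5 with the highest Pearson correlation. Replicate numbers come from the titles. Same-numbered DSS and TM libraries, replicates 5, 6 and 7, deviated together (r = 0.432, 0.253 and 0.137). This met the rule used, a correlation over 0.1 in every pair, but does not establish a pairing. The TM library most like DSS replicate 7 was TM replicate 5. DSS replicates 1 and 2 and TM replicates 3 and 8 have no counterpart. Apart from the fit with the replicate block, the tests of TM against DSS were unpaired. The alternatives were a pseudocount of 0.1, no filter, upper-quartile scaling, the replicate block, the mapped percent as a covariate, all 4 groups in 1 fit, and leaving out each library. Upstream sequences are from RefSeq, GRCm38.p6.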

Additional observations from a re-analysis of the deposited data

Results flagged for a closer look

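In TM replicate 8 Gzma stood at 11.646 FPKM and Gzmb at 5.84 FPKM, each far from the other 4 TM libraries. The gap to the next library was 0.760 of the group's range for Gzma and 0.808 for Gzmb, above Dixon's critical value of 0.71 for 5 samples. They are 2 of 36 groups examined (9 genes in 4 groups), and chance flags about 1 group in 20. Both values come from 1 library, so they are not independent of each other.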

How the results depend on the processing

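Depth per gene is unknown, and 8 of the 9 genes had CON means between 0.664 and 2.16 FPKM, where log2(FPKM + 1) compresses changes. For DSS against CON, 3 of the 9 genes were called, 1 without the filter, 0 with the mapped percent as a covariate, and 1 to 4 with 1 library left out; of all genes 3655 were called, 2176 with the replicate block, 26 with the covariate and 2493 to 4166 with 1 library left out. For HMLS against CON, 4 were called, 0 with the replicate block, 2 with the covariate and 2 to 5 with 1 library left out; of all genes 4565, and 753 with the block. For TM against CON, 1 was called, 0 without the filter, with upper-quartile scaling or with the covariate, and 0 to 1 with 1 library left out; of all genes 3510, and 2000 with the block. The cause was not tested. Numbers did not pair the libraries of CON with DSS (r -0.201 to 0.324), HMLS (-0.108 to 0.0707) or TM (-0.00341 to 0.203), nor HMLS with TM (-0.227 to 0.0478). In TM against DSS, where the numbers met the rule for pairing, 0 genes were called with or without the block. With no call to lose, this count cannot show how far the result depends on the block. Genes at an unadjusted p under 0.05 (limma) were 367 without it and 613 with it.

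Between colitis groups 0 genes were called, with 0 to 1 in HMLS against DSS and 0 to 3 in HMLS against TM when 1 library was left out, the highest counts without HMLS replicate 3. Of the differences to Cd3e 0 passed, and 0 to 3 with 1 library left out. The differences that changed sign were all of genes not called. With upper-quartile scaling they were Cd3e in HMLS against CON (-0.032), and Itgae (-0.061) and Il7r (-0.024) in TM against CON. With the replicate block they were Cd3g (0.015) and Cd2 (0.049) in TM against CON and Cd3g in HMLS against DSS (0.11). With the covariate they were Cd3e (0.026) and Gzma (0.57) in TM against DSS. With 1 library left out the ranges were -0.16 to 0.036 for Itgae in DSS against CON, and -0.015 to 0.17 for Cd3e in HMLS against CON. In TM against CON they were -0.19 to 0.088 for Cd3g, -0.24 to 0.012 for Cd2, -0.099 to 0.15 for Itgae and -0.033 to 0.12 for Il7r. In HMLS against DSS the range was -0.23 to 0.084 for Cd3g, and in TM against DSS -0.70 to 0.032 for Gzma, -0.33 to 0.24 for Gzmb and -0.014 to 0.24 for Itgae. In HMLS against TM they were -0.19 to 0.047 for Cd3e and -0.68 to 0.059 for Gzma.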
